A study of Mus musculus with 4 samples.

Results

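Collagens are the structural proteins of connective tissue. Their genes were taken as the rows of the deposited expression matrix whose symbol is Col, a type number, the letter a and a chain number, and 41 of its 20325 gene symbols met that rule. The rule itself used no measured value, but the members, gene lists and tests were chosen with earlier results of these data known. RNA was sequenced from mouse C3H10T1/2 cells, multipotent mesenchymal cells derived from embryos of the C3H strain. Both groups stably expressed a FLAG-HA-tagged H3.3 histone and were used at passage 10 to 15. In the group called WT the tagged histone was wild type (2 libraries), and in the group called K36M it carried the K36M substitution (2 libraries). The sources used here do not give the promoter of the transgene, the level of the tagged protein, or whether a line was 1 clone or the replicates were separate cultures. The p-values therefore measure no more than the spread among the 4 libraries, and that spread may be technical. RNA was measured in bulk, so fewer cells of a type and less RNA per cell cannot be told apart.

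A collagen molecule is a trimer of chains whose glycine-rich repeats wind into a triple helix, and each chain has its own gene. Fibrillar collagens assemble into the banded fibrils that carry tension, with types I and III in general connective tissue and types II and XI in cartilage. FACIT collagens, whose helices are interrupted, sit on the surface of such fibrils. Type IV forms the sheet of basement membranes, types VIII and X form other networks, type VI forms beaded filaments, type VII anchors epithelium, and transmembrane collagens stay in the cell surface. K36M histone H3 is known to inhibit the enzymes that methylate lysine 36 of histone H3, and the comparison asks how collagen expression differed between cells with the mutant and the wild type histone.

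Most collagen genes with enough counts to test fell in K36M cells. The tested fibrillar, FACIT, network and beaded filament chains were lower apart from Col1a1, the tested type IV chains were divided, and the tested transmembrane chains and the anchoring fibril chain Col7a1 were higher. Levels are in CPM, computed from the expected count and a TMM-scaled library size. A gene was called at an adjusted p under 0.05 in edgeR's quasi-likelihood test over 13162 genes, and all collagen p-values below are Benjamini-Hochberg adjusted values of that test. Of the 41 collagen genes 35 passed the low-count filter. Of those, 26 were called lower and 9 higher, so none was without a call, where 75.6% of all tested genes were called, 37.1% lower and 38.5% higher. At least 2-fold falls numbered 20 collagens against 8.69% of tested genes, and at least 2-fold rises 7 against 12.7%. At least 10-fold falls numbered 10 against 1.7% of tested genes, and at least 10-fold rises 1 against 4.26%. That rise, of Col23a1, was close to the limit. Its log2 fold change of 3.35 was 3.27 under the authors' scaling, 3.21 without WT replicate 2 and 3.26 without K36M replicate 2, each short of 10-fold. The fall of Col19a1, at log2 -3.49, was -3.11 without WT replicate 1 and -2.79 without K36M replicate 1, also short of 10-fold. The libraries of the groups did not overlap in these 35 genes, with K36M below in 26 and above in 9, where 43.1% and 44.0% of tested genes were so separated. The median log2 fold change of the 35 was -1.20, beside 0.00 over all tested genes. Filter and direction are linked for 4 of the 35: Col9a2 and Col19a1 passed through WT alone and Col4a4 and Col4a6 through K36M alone, so these had to differ. Col9a2 and Col19a1 are in both counts of falls above, and Col4a4 and Col4a6 are in the count of at least 2-fold rises. The other 6 collagens did not pass, and their counts are given by class below.

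**Figure D1:**
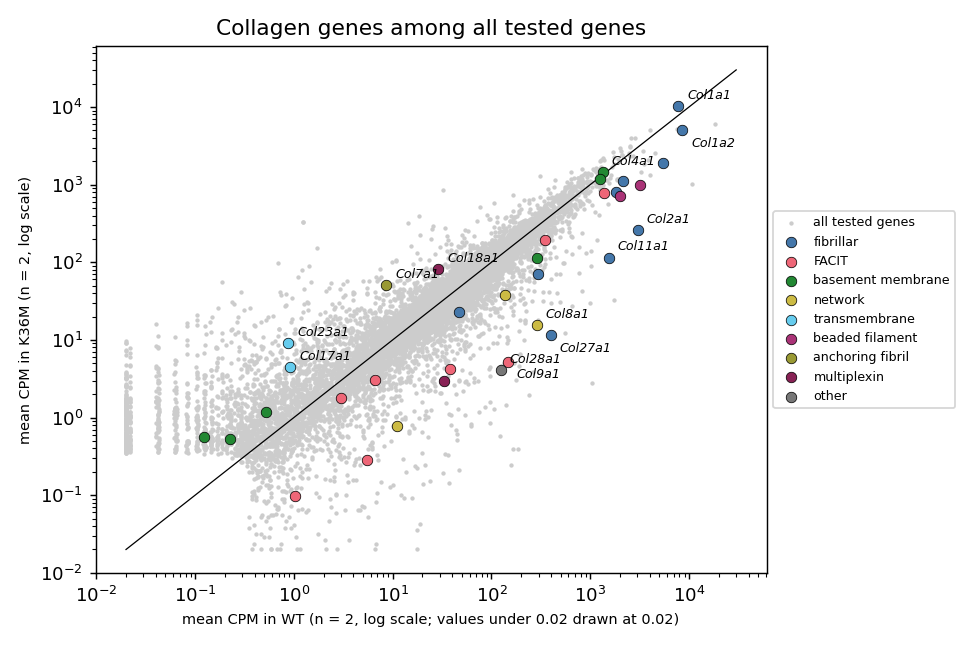
Mean CPM in K36M cells (vertical, log scale) against mean CPM in WT (horizontal, log scale), n = 2 libraries each, for all 13162 tested genes in grey and the 35 tested collagens coloured by class. The line marks equal levels, and 26 collagens lie below it as called lower while 9 lie above it as called higher.

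The stretches of DNA before the starts of the genes with the largest changes are shown because transcription begins there. They are the 250 bases before the RefSeq start on build GRCm38.p6, for the members with the 3 largest falls and for 2 members that rose, Col7a1 and Col23a1, taken among members with no GENCODE exon in that stretch. Capitals mark short forms of known promoter sites on either strand: TATAA for the TATA box, CCAAT for the box of that name, GGGCGG for the GC box and AACAAT for a SOX factor site. For Col9a1 it is the first of 2 listed starts.
Col27a1, chr4:63215162-63215411, plus strand: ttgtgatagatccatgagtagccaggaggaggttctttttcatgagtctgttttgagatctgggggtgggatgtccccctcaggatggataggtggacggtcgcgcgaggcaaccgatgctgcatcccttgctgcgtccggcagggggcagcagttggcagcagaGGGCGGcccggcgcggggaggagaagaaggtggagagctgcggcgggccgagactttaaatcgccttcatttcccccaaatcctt
Col28a1, chr6:8192618-8192867, minus strand: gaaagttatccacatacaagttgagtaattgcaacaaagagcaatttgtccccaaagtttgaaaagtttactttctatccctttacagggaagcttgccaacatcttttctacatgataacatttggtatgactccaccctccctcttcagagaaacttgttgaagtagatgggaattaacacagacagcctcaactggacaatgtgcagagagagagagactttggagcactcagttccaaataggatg
Col9a1, chr1:24177360-24177609, plus strand: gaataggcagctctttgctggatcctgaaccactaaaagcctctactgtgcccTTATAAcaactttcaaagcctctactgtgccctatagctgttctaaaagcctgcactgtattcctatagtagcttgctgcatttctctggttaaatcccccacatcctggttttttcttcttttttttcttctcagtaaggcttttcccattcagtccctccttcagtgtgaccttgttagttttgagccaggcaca
Col7a1, chr9:108953336-108953585, plus strand: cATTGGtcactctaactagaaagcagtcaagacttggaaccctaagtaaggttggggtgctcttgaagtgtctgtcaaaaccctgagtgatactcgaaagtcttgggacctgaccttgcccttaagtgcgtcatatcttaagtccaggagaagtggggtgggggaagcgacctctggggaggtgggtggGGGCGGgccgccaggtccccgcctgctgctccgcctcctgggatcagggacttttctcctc
Col23a1, chr11:51289670-51289919, plus strand: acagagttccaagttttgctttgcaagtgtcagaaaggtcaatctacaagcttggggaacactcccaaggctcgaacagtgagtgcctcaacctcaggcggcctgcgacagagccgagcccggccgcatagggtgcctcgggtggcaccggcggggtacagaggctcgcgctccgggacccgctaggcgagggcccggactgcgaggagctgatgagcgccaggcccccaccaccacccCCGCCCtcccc
The Col27a1 stretch holds 1 GC box, 85 bases before the start, that of Col23a1 1 at 11 bases, and that of Col7a1 1 at 61 bases and a CCAAT box at 249 bases. The Col28a1 stretch holds none of the 4 letter strings, and that of Col9a1 holds TATAA on both strands at 196 and 197 bases. A RefSeq window of 250 bases before and 50 after the start was listed for 33 of the 41 members, 36 windows in all. The 8 without a window, Col1a1, Col2a1, Col4a3, Col5a2, Col9a3, Col12a1, Col14a1 and Col22a1, were not searched. GGGCGG or its reverse stood in 22 of the 36 (61.1%), against 35.7% of 32851 windows of all genes. By call, that was 14 of 23 windows of members called lower and 5 of 8 of members called higher. The median GC content of the 250 bases was 59.2% and 59.8% in these lower and higher members, against 52.4% in all windows. CCAAT stood in 36.1% of collagen windows and 37.4% of all windows, and TATAA in 19.4% and 24.9%. AACAAT stood in 1 collagen window (2.78%), that of Col3a1, against 10.7% of all windows. No letter string contains another, and a match is a description of the letters and not of a bound factor.

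Among the fibrillar collagens 9 of 10 tested chains fell and 1 rose (median log2 fold change -1.36). Over all tested genes 37.1% were called lower and 38.5% higher (median 0.00). Col27a1, Col11a1 and Col2a1, all genes of cartilage fibrils, had the 3 largest falls of the class. Col2a1, the sole chain of type II collagen and the main fibril protein of cartilage, had 3057 and 2972 CPM in WT libraries against 269 and 251 CPM in K36M libraries. Both K36M values lay far below both WT values, an 11.6-fold fall (adjusted p = 6.31e-21). Col11a1, a chain of the type XI collagen that sits inside cartilage fibrils, stood at 1515 and 1557 CPM in WT against 111 and 118 CPM in K36M. Its fall was 13.4-fold (adjusted p = 7.06e-22), whereas its partner chain Col11a2 fell 2.02-fold, from 45.5 and 48.0 to 23.1 and 23.2 CPM (adjusted p = 3.95e-12). Col27a1, whose fibrillar collagen is found in cartilage and helps organise growth plates, had the largest fall of any collagen. It stood at 381 and 415 CPM in WT against 11.5 and 11.4 CPM in K36M cells, 34.7-fold lower (adjusted p = 4.5e-22). Its fellow in the same fibrillar subgroup, Col24a1, had 0 counts in both WT libraries and 3 and 1 in K36M, too few to compare.

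The fibrillar chains of general connective tissue did not move together. Col1a1, the gene of the major type I chain, stood at 7867 and 7630 CPM in WT against 10841 and 9548 CPM in K36M cells, and was the sole fibrillar chain to rise (1.32-fold, log2 0.40 ± 0.06 SE, adjusted p = 3.44e-06). Both K36M libraries lay above both WT libraries, although the K36M replicates (SD 914 CPM) lay further apart than the WT replicates (SD 167 CPM). Col1a2, the other chain of the same type I trimer, went the other way, from 8636 and 8531 to 5074 and 4884 CPM (1.72-fold lower, adjusted p = 1.9e-11). Col3a1, which forms the thin fibrils of soft tissue alongside type I, fell from 5458 and 5519 to 1934 and 1880 CPM (2.88-fold, adjusted p = 5.09e-16). The type V chains, which set fibril diameter, all fell. Col5a1 went from 1852 and 1804 to 820 and 769 CPM (2.30-fold), and Col5a2 from 2174 and 2141 to 1114 and 1109 CPM (1.94-fold). Col5a3, the least abundant of them per kb, fell further, from 293 and 305 to 71.4 and 70.5 CPM (4.21-fold). None of these chains had overlapping groups, but K36M lay below in 43.1% and above in 44.0% of all tested genes. The adjusted p of the type V chains was at most 1.12e-13.

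**Figure D2:**
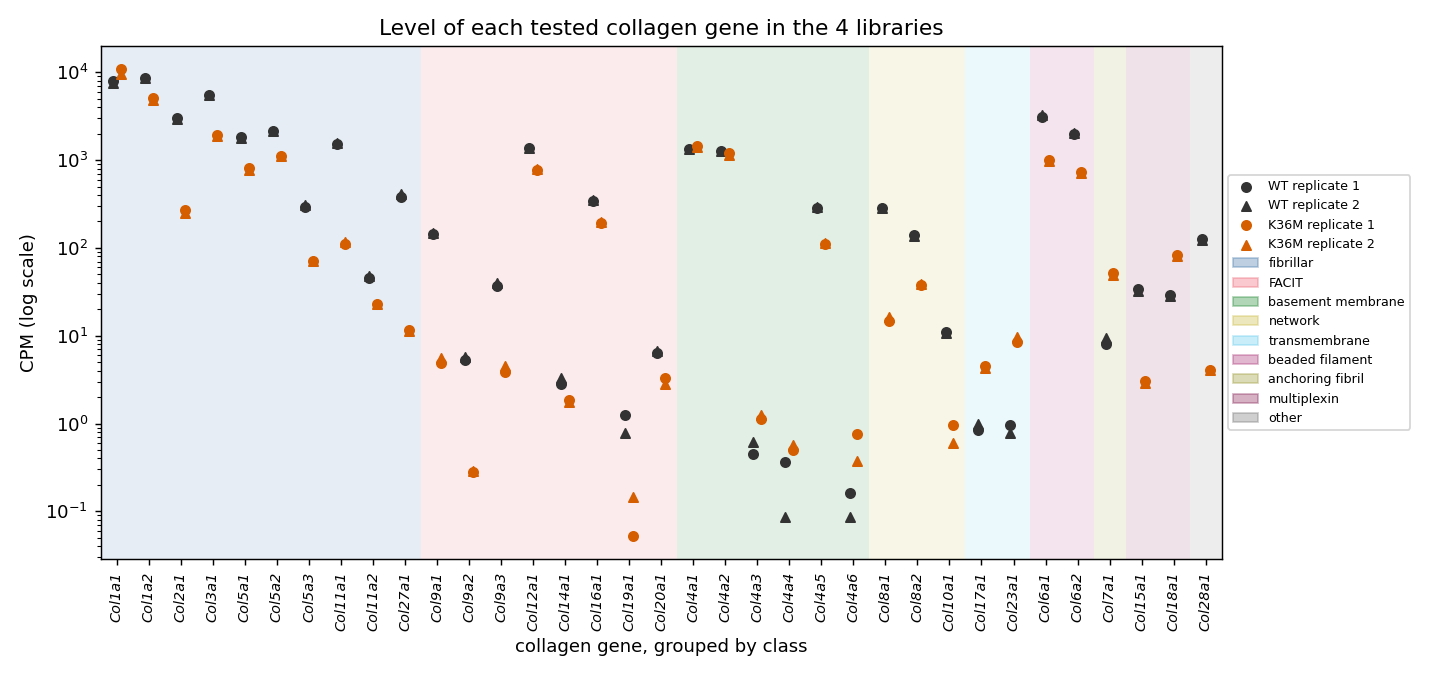
CPM of the 35 tested collagens (vertical, log scale) in each of the 4 libraries, WT in black and K36M in orange, replicate 1 as circles and replicate 2 as triangles, on a background coloured by class. The libraries of a group lie close together for abundant genes and apart for those under about 1 CPM, such as Col4a4 and Col4a6, and Col1a1 is the fibrillar gene with K36M above WT.

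All 8 tested FACIT chains were called lower in K36M, where 37.1% of all tested genes were, and their median log2 fold change was -2.15. Both the count and the median include Col9a2 and Col19a1, which passed the filter through WT alone and so had to differ. The falls of the 8 chains were of large and small size. The type IX genes, whose collagen coats cartilage fibrils, were among those with large falls. Col9a1 stood at 145 and 146 CPM in WT against 4.93 and 5.55 CPM in K36M cells, 28.1-fold lower (adjusted p = 3.35e-21). Col9a3 fell from 36.6 and 40.4 to 3.82 and 4.58 CPM, 9.31-fold (adjusted p = 3.21e-16). Col9a2 was much lower in level, at 5.33 and 5.74 CPM in WT and 0.282 and 0.288 CPM in K36M cells, 19.2-fold lower (adjusted p = 1.58e-12). Thus all 3 chains of the type IX trimer were reduced, to differing degrees, with Col9a2 one that had to differ. Col19a1, a rare collagen whose gene lies next to Col9a1, had 31 and 18 counts in WT and 3 and 5 in K36M, and its 11.3-fold fall (adjusted p = 2.48e-06) rests on those few counts, with a log2 fold change of -3.49 that was -2.79 without K36M replicate 1 and -4.18 without K36M replicate 2.

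The other FACIT chains, among them those of tendon and skin, fell less. Col12a1, the most abundant FACIT gene here per kb, stood at 1376 and 1370 CPM in WT against 771 and 784 CPM in K36M cells (1.77-fold lower, adjusted p = 3.85e-13). Col16a1 went from 342 and 353 to 193 and 196 CPM (1.79-fold, adjusted p = 2.81e-13). The near equal falls of these 2 abundant genes were both under 2-fold. Col14a1, at 2.78 and 3.26 CPM in WT, fell 1.65-fold (adjusted p = 0.000897), and Col20a1, at 6.33 and 6.78 CPM, fell 2.12-fold (adjusted p = 3.78e-07). Col22a1, a collagen of tissue junctions, had 0 counts in both WT libraries and 7 and 3 in K36M and was not tested.

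Among the type IV basement membrane chains, Col4a4 and Col4a6 passed the filter through K36M alone and so had to differ. Beside 38.5% and 37.1% of all tested genes, 4 of all 6 chains were called higher and 2 lower, and the abundant pair hardly moved. Without WT replicate 2 or K36M replicate 1, 2 of them were called higher, and without either WT library 1 was called lower. Col4a6 did not pass the filter without K36M replicate 1, so it was not tested there. Col4a1 and Col4a2, which together build the common type IV trimer and start next to each other on opposite strands, were the collagens with the smallest differences. Col4a1 stood at 1331 and 1348 CPM in WT and 1457 and 1425 CPM in K36M cells (log2 0.11 ± 0.04 SE, adjusted p = 0.0201), and Col4a2 at 1261 and 1265 against 1200 and 1149 CPM (log2 -0.10 ± 0.04 SE, adjusted p = 0.0215). Col4a1 was not past the threshold under the authors' scaling (adjusted p = 0.656) or without WT replicate 1 (0.191) or 2 (0.119), and Col4a2 was not under total count scaling (0.217), upper quartile scaling (0.154) or a mean of at least 5 CPM (0.0748), nor without WT replicate 1 or 2 (0.110 each). Their first exons overlap on opposite strands in GENCODE, and whether the libraries kept strand is not given, so reads there cannot be told apart. Col4a5, a chain of the kidney and muscle type IV trimers, fell clearly, from 284 and 293 to 112 and 113 CPM (2.57-fold, adjusted p = 3.36e-16).

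The other type IV chains, among them the 2 that passed the filter through K36M alone, were near the limit of detection. Col4a3 had 11 and 14 counts in WT and 64 and 43 in K36M, from deeper libraries, which is 0.444 and 0.608 against 1.13 and 1.24 CPM (2.23-fold higher, adjusted p = 0.00171). Col4a6, the neighbour of Col4a5 on the X chromosome, had 4 and 2 counts in WT and 43 and 13 in K36M (4.72-fold higher, adjusted p = 0.00144). It moved opposite to its neighbour, but the K36M libraries differed from each other, at 0.757 and 0.374 CPM. Without K36M replicate 1 Col4a6 did not pass the filter and was not tested. Col4a4 stood at 0.363 and 0.0869 CPM in WT and 0.493 and 0.576 CPM in K36M cells (adjusted p = 0.0346). Its call was lost with the DESeq2 Wald test (adjusted p = 0.162), with the replicate number as a block (0.0757), without WT replicate 2 (0.380), and without K36M replicate 1 (0.0504) or 2 (0.0875). Its log2 fold change of 1.18 was 2.55 without WT replicate 1 and 0.53 without WT replicate 2. At these counts the rise of Col4a4 was not a firm measurement. Summed endothelial marker genes, a source of type IV collagen in tissue, were at 59.9 and 56.9 CPM in WT and 26.3 and 24.1 CPM in K36M cells, and their part in these values was not tested. Of 5 tested endothelial markers 2 were called higher (Cdh5 3.22-fold and Egfl7 4.02-fold) and 2 lower, 40% each, beside 38.5% and 37.1% of all tested genes. The lower ones were Tek (5.91-fold) and Erg, which passed the filter through WT alone, and these held most of the summed level in WT. The defining endothelial gene Pecam1 was at most 0.201 CPM in any library, and 5, 4, 2 and 3 of the 12 markers had 0 counts in the 4 libraries.

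All 3 network-forming chains fell by more than 2-fold, where 8.69% of all tested genes were called at least 2-fold lower. Col8a1, a chain of the hexagonal type VIII network of vessels and cornea, stood at 287 and 289 CPM in WT against 14.9 and 16.5 CPM in K36M cells (18.5-fold lower, adjusted p = 1.79e-21). Its partner Col8a2 fell less, from 139 and 136 to 37.4 and 38.8 CPM (3.63-fold, adjusted p = 4.46e-17). Col10a1, the marker of hypertrophic cartilage, was low in WT already, at 11 and 10.9 CPM, and stood at 0.951 and 0.604 CPM in K36M cells (13.4-fold lower, adjusted p = 1.04e-13). In each of the 3 genes the groups were separate by a wide margin, and replicates within a group agree closely for both type VIII chains.

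The transmembrane collagens with enough counts rose, where 38.5% of all tested genes were called higher. Col23a1, a transmembrane collagen of epithelia and other tissues, had the largest rise of any collagen, from 0.968 and 0.782 to 8.42 and 9.76 CPM (10.2-fold, adjusted p = 2.68e-12). Col17a1, the hemidesmosome collagen that ties basal keratinocytes to the basement membrane, rose from 0.847 and 0.999 to 4.58 and 4.29 CPM (4.82-fold, adjusted p = 2.88e-09). Both remained minor transcripts, below 10 CPM in each library. Col13a1 had 0 counts in WT and 2 and 4 in K36M, and Col25a1 had 0 in all 4 libraries, so neither was tested. A count of 0 allows up to 3 counts, which is 0.121 and 0.130 CPM in the WT libraries and 0.0528 and 0.0863 CPM in the K36M libraries, for counting error only.

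Outside these classes the collagens were divided. The type VI chains, which form beaded filaments around cells, fell together. Col6a1 stood at 3140 and 3250 CPM in WT against 1000 and 965 CPM in K36M cells (3.25-fold lower, adjusted p = 6.9e-17), and its neighbour Col6a2 at 1999 and 2016 against 735 and 707 CPM (2.78-fold lower, adjusted p = 1.7e-16). Both were among the most abundant collagens per kb. Col6a4 and Col6a6, which can replace Col6a3 in the trimer, had 0 counts in WT and 7 and 2, and 12 and 3, counts in K36M and were not tested. Col6a3 itself was not analysed here.

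Col7a1, which forms the anchoring fibrils below epithelium, rose from 7.95 and 9.34 to 52.1 and 49.6 CPM (5.91-fold, adjusted p = 2.58e-16). The multiplexins, basement membrane zone collagens that carry sugar chains and whose ends yield endostatin-type fragments, moved apart. Col18a1 rose from 29.1 and 28.5 to 84.1 and 80.0 CPM (2.85-fold, adjusted p = 5.74e-15), while Col15a1 fell from 33.6 and 32.1 to 3.08 and 2.91 CPM (10.9-fold, adjusted p = 8.77e-17). Col28a1, a rare collagen with von Willebrand factor domains best known from peripheral nerve, fell from 125 and 124 to 4.12 and 4.09 CPM (30.3-fold, adjusted p = 1.85e-21). Beside the rise of Col7a1, Col17a1 and Col23a1, summed epithelial markers were 18.9 and 16.9 CPM in WT and 26 and 27.7 CPM in K36M. Of 6 tested epithelial markers 4 were called higher (66.7%) and 2 lower (33.3%), beside 38.5% and 37.1% of all tested genes. Of the higher ones 3, Esrp1, Krt8 and Krt19, passed the filter through K36M alone and so had to differ. Among the others, Cdh1, the E-cadherin gene, rose 4.04-fold, from 5.89 and 5.56 to 22.3 and 24.1 CPM, and carried the higher sum in K36M. The basal keratinocyte genes, which held much of the WT sum, went the other way. Krt14 fell 7.44-fold, from 5.97 and 5.26 to 0.775 and 0.719 CPM. Trp63 fell 13.8-fold, from 6.37 and 5.52 to 0.370 and 0.518 CPM. The defining gene Epcam had 0 counts in all 4 libraries. The markers with 0 counts numbered 5, 5, 2 and 4 of 12 in the 4 libraries, and their part in the rise was not tested.

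**Figure D3:**
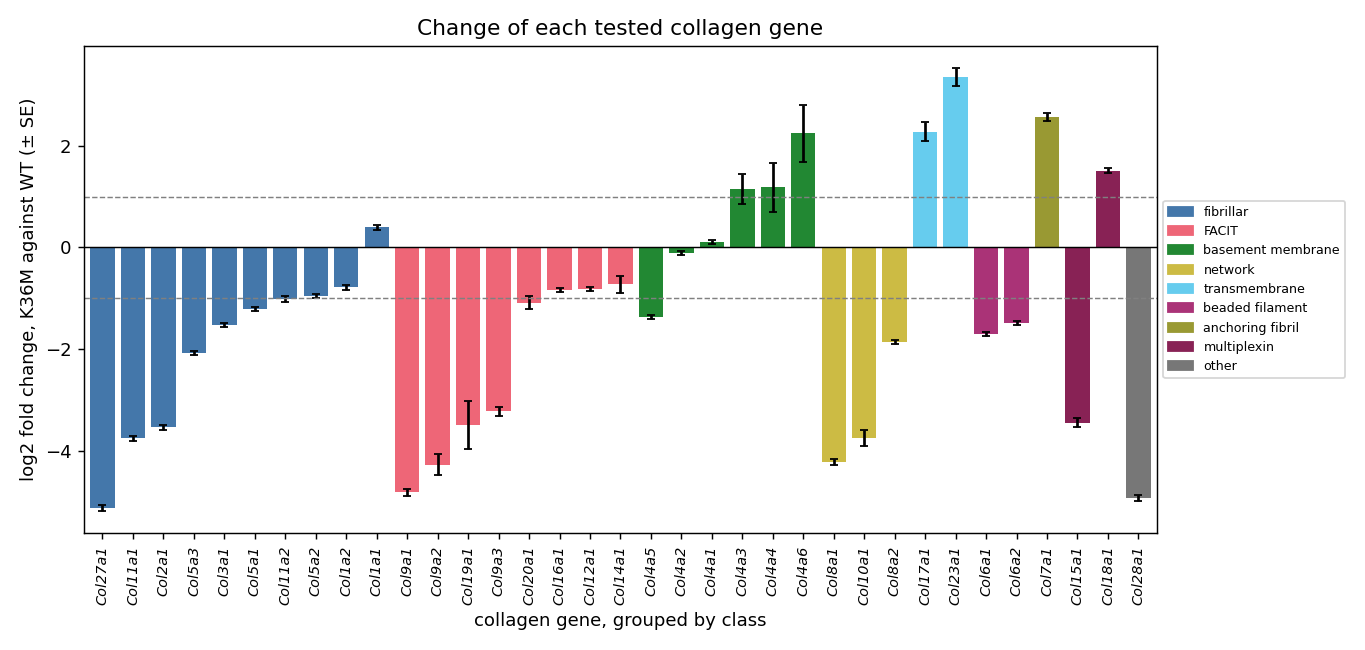
Log2 fold change of K36M against WT for the 35 tested collagens, ordered by size within each class, with bars starting at 0 and error bars of 1 SE from the edgeR fit over 4 libraries. Dashed lines mark 2-fold, and bars run from -5.12 for Col27a1 to 3.35 for Col23a1.

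The collagen transcript pool was smaller in K36M and its make-up was different. Collagen genes took 4.10% and 4.11% of all expected counts in the WT libraries and 2.63% and 2.47% in the K36M libraries. The type I genes together held 1.62% and 1.59% in WT and 1.61% and 1.47% in K36M, groups that overlap. All other collagens held 2.48% and 2.51% in WT and 1.02% and 1% in K36M. Thus the type I genes kept their share only as a sum, with Col1a1 higher and Col1a2 lower, while the other collagens together held a smaller share. To compare genes with each other, CPM was divided by the length of the longest protein-coding GENCODE transcript, which may differ from the gene models the authors counted on. On this per kb scale Col1a2 ranked first in WT (1605 CPM per kb) and Col1a1 second (1307), and in K36M Col1a1 ranked first (1719) and Col1a2 second (931). Col1a1 made up 18% and 17.5% of the summed collagen CPM per kb in WT and 41.1% and 38.8% in K36M. The share of Col1a2 was 21.9% and 21.7% in WT against 21.4% and 22% in K36M, groups that overlap, so its fall in CPM was in proportion to the pool. Col2a1 went from 8.11% and 7.92% to 1.19% and 1.18% of the pool, and from rank 5 to rank 11. Basement membrane chains took a larger share, 5.96% and 6.05% in WT and 9.53% and 9.92% in K36M. Their summed level changed little, from 2877 and 2907 CPM in WT to 2771 and 2690 CPM in K36M. Single chains other than Col4a1 and Col4a2 changed more, as given above. The beaded filament chains took 16.2% and 16.7% in WT and 9.05% and 9.35% in K36M.

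**Figure D4:**
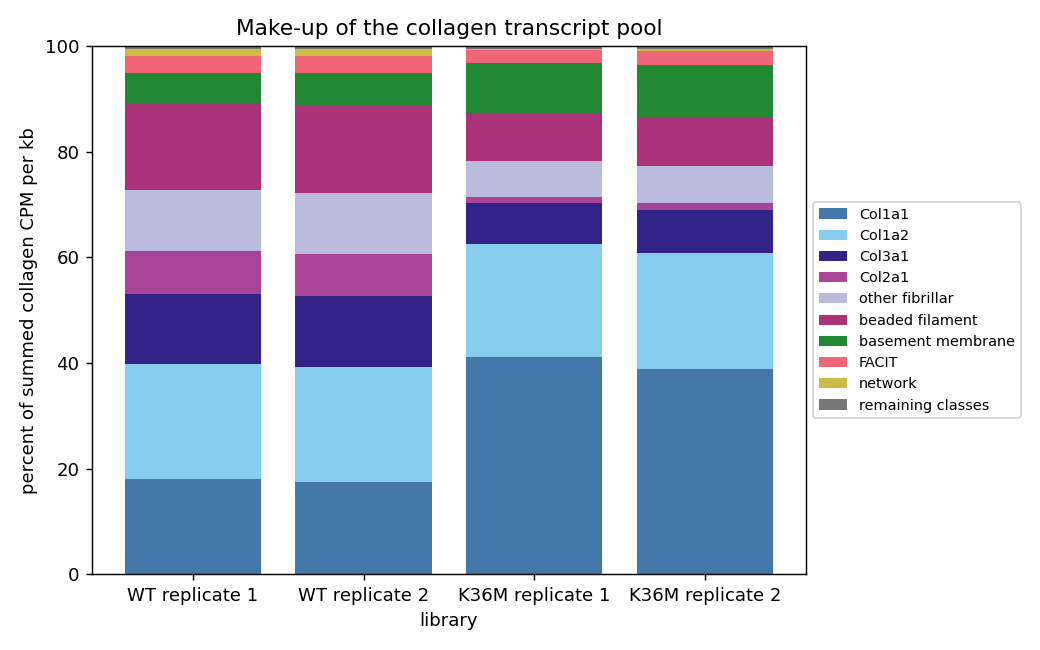
Percent of the summed collagen CPM per kb (vertical, from 0 to 100) taken by single type I, II and III chains, the other fibrillar chains and the other classes in each of the 4 libraries. The Col1a1 segment is 18% and 17.5% in WT and 41.1% and 38.8% in K36M, and the Col2a1 segment shrinks to 1.19% and 1.18%.

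Chains that share a trimer were compared by the ratio of their counts, which does not depend on how libraries are scaled. The ratios are given as a description and were not tested. The Col1a1 to Col1a2 ratio was 0.911 and 0.894 in the WT libraries and 2.14 and 1.96 in the K36M libraries, and per kb 0.822 and 0.807 against 1.93 and 1.76. The main type I molecule holds more of the Col1a1 chain than of the Col1a2 chain. This 2.26-fold shift was larger than the gap between replicates of either group. The Col8a1 to Col8a2 ratio went from 2.06 and 2.12 to 0.398 and 0.424, so the order of the 2 chains in counts, and per kb, was reversed. The Col11a1 to Col11a2 ratio went from 33.3 and 32.5 to 4.79 and 5.09. Col5a1 chains can join type XI chains in mixed fibrils, and the Col5a1 to Col11a1 ratio rose from 1.22 and 1.16 to 7.40 and 6.51. The Col9a1 to Col9a3 ratio fell from 3.96 and 3.62 to 1.29 and 1.21.

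In 3 abundant pairs the ratio moved less. It moved 1.16-fold for Col4a1 to Col4a2, 1.19-fold for Col5a1 to Col5a2 and 1.17-fold for Col6a1 to Col6a2. The ratios of the groups did not overlap in these pairs either. Separate groups were common, with K36M above in 44.0% and below in 43.1% of single tested genes. No share was taken over other pairs of genes. The Col9a1 to Col9a2 ratio moved 1.43-fold, while the Col4a5 to Col4a6 ratio had the largest shift of the 11 pairs (11.5-fold), from 1762 and 3375 to 147 and 303, resting on the few Col4a6 counts. Col4a3 to Col4a4 ratios overlapped between groups, at 1.23 and 7 in WT and 2.28 and 2.15 in K36M. By position, 6 pairs of collagen genes are direct neighbours among protein-coding genes of GRCm38. In 4 of them, Col9a1 and Col19a1, Col3a1 and Col5a2, Col4a3 and Col4a4, and Col6a1 and Col6a2, the fitted fold changes had 1 sign. In Col4a1 with Col4a2 and Col4a5 with Col4a6 they had opposite signs. With 26 of 35 tested collagens lower, a shared sign is common among collagens that are not neighbours too. Col19a1, Col4a4 and Col4a6 also passed the filter through a single group, so these had to differ.

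**Figure D5:**
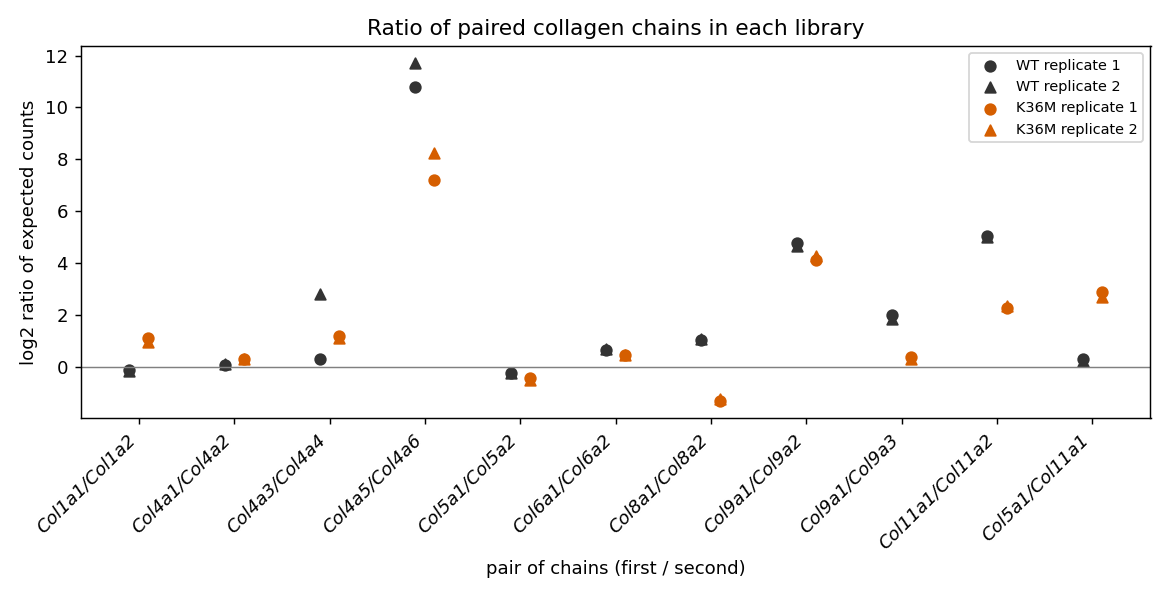
Log2 ratio of the expected counts of 2 chains (vertical) for 11 pairs in each library, WT in black and K36M in orange, with replicates as circles and triangles. Ratios of the groups are apart in 10 pairs and overlap for Col4a3/Col4a4, and the Col8a1/Col8a2 points change sides of 0.

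Genes that act on collagen chains were read from the same test, in which 38.5% of all tested genes were called higher and 37.1% lower. Before a trimer leaves the endoplasmic reticulum, enzymes hydroxylate its prolines and lysines, add sugars and guide its folding. Of 19 tested genes for folding and secretion 14 were called lower and 0 higher (median log2 fold change -0.32, all tested genes 0.00), with 4 at least 2-fold lower, where 8.69% of all tested genes were. Leprel1, a prolyl 3-hydroxylase gene, fell from 44.6 and 43.2 to 0.775 and 0.604 CPM (61.7-fold, adjusted p = 5.49e-19). Glt25d2, a collagen galactosyltransferase gene, stood at 6.29 and 7.26 CPM in WT and 0.0176 and 0.0288 CPM in K36M cells, which is 2 counts in all. It is 1 of the 14 and passed the filter through WT alone, so it had to differ. Plod2, the lysyl hydroxylase of the collagen ends, fell 3.37-fold (adjusted p = 9.12e-16). The prolyl 4-hydroxylase subunit genes, named after their values were seen, were divided. P4ha1 at log2 0.05 and P4hb at -0.04 were not past the threshold (adjusted p = 0.200 and 0.362), while P4ha2 fell 1.87-fold and P4ha3 1.55-fold (adjusted p = 4.57e-12 and 7.48e-09).

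Outside the cell, propeptides are cut off and lysyl oxidases link the fibrils. Of 11 tested genes of this kind 6 were called higher (54.5%) and 4 lower (36.4%, near the share of all tested genes), with a median log2 fold change of 0.16. Pcolce2, an enhancer of C-propeptide cleavage, fell from 300 and 292 to 17.8 and 18.2 CPM (16.5-fold, adjusted p = 1.01e-21), while its relative Pcolce, named after its values were seen, rose 1.37-fold. Adamts14, a protease for N-propeptides, rose 3.38-fold and Loxl2, a lysyl oxidase gene at no more than 8.03 CPM, 1.64-fold. Lox, the most abundant lysyl oxidase gene in CPM and also named after its values were seen, fell from 3471 and 3381 to 2766 and 2692 CPM (1.26-fold, adjusted p = 1.89e-06). Of 7 tested collagen receptors 2 were higher (28.6%) and 3 lower (42.9%), beside 38.5% and 37.1% of all tested genes, with the largest fall for the integrin gene Itga1 (6.48-fold, adjusted p = 5.27e-17) and the largest rise for the collagen uptake receptor gene Mrc2 (1.29-fold). Of 4 tested degradation genes 1 was higher and 2 lower. Those were Mmp9, which passed the filter through K36M alone and so had to differ, at no more than 1.74 CPM, and Mmp2 and Mmp14, which fell 1.68-fold and 1.59-fold.

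Of 19 tested regulators of collagen genes 6 were called higher and 6 lower (31.6% each, below the shares of all tested genes, median 0.00). Sox9, which drives cartilage collagen genes, fell 6.93-fold, and Sox6, its partner in cartilage, 114-fold. Sox8, the close relative of Sox9, passed the filter through WT alone and so had to differ, at 10.4 and 9.95 CPM in WT and 4 and 7 counts in K36M. Scx, a tendon factor known to act on type I collagen, rose from 5.45 and 5.60 to 39.9 and 40.5 CPM (7.27-fold, adjusted p = 1.23e-16). Smad3, a TGF-beta effector gene, rose 1.82-fold and Creb3l1, a bone factor for Col1a1, 1.73-fold. Col2a1, Col9a1, Col9a3, Col11a1 and Col27a1 fell in the libraries where Sox9 and Sox6 fell, and whether the one depends on the other was not tested.

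Library totals ranged from 23343297 to 56041798 expected counts, with K36M the deeper group. Within a group, counts of the libraries were further apart than sampling noise allows (mean chi-square over genes of 3.68 for WT and 7.41 for K36M), so they were kept as separate samples. The 9 mesenchymal markers summed to 28226 and 28845 CPM in WT and 14228 and 13935 CPM in K36M cells, mostly through Fn1, which fell 3.04-fold. Of the 8 tested, 4 were called lower (50%), among them Vim (1.46-fold), and 2 higher (25%), Thy1 (11.2-fold) and Twist1 (1.84-fold). Of all tested genes 37.1% were called lower and 38.5% higher. The part of these markers in the collagen values was not tested. Summed blood markers were 7.46 and 8.08 CPM in WT and 42.2 and 40.7 CPM in K36M cells, most of it Hba-a1 in K36M, with 4, 4, 3 and 3 of 11 at 0 and Cd3e at 0 throughout. Of 5 tested blood markers 4 were called higher (80%) and 0 lower. Hba-a1 and Csf1r passed the filter through K36M alone and so had to differ, while Lyz2 rose 3.56-fold and Cd14 1.57-fold. The part of the blood markers in the collagen values was not tested. The authors' deposited table holds 594 genes changed at least 10-fold by their ratio, 209 below 1 (35.2%) and 385 above. It holds 9 collagens, all 9 with a ratio below 1. Col23a1, 10.2-fold higher here, and Col19a1, 11.3-fold lower here, are not among them. In the authors' deposited table Col27a1 was 36.8-fold lower, Col28a1 32.0-fold, Col9a1 29.3-fold and Col15a1, the least changed of the 9, 11.5-fold lower.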

How the data were processed

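RNA sequencing libraries of C3H10T1/2 cells (WT n = 2, K36M n = 2, grouped by title) were analysed from the authors' processed files. The authors deposited RSEM expected counts per gene symbol, per the file headers, and the submitters' processing notes name Bowtie 1.0.0, RSEM 1.2.12 and build mm9. A second table deposited by the authors gives log2 values, which were recovered from the matrix by scaling each library with 1 factor, adding 1 and taking log2 (largest difference 4.98e-09), and a linear fold ratio of K36M over WT. Poly(A) selection and strand are not given in the sources used here. Reads were counted without molecular identifiers, so floors cover counting error only.

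Expected counts were rounded to whole numbers. K36M was compared with WT in edgeR 4.0.16 under R 4.3.3 (filterByExpr, TMM, glmQLFit and glmQLFTest, 2 residual degrees of freedom, Benjamini-Hochberg over 13162 genes). The test was run on counts simulated at a single dispersion, with changes set only in genes above a CPM limit. Such counts cannot show how the test behaves with gene-specific spread or for changes in low-count genes. SE is the absolute log2 fold change over the square root of F. Alternatives used DESeq2 1.42.0 and limma 3.58.1 (voom), other scalings and filters, a replicate block and omission of each library. Collagen classes follow the collagen type, and genes were named by class, size of change and abundance. Members, lists and tests were chosen with earlier results of these data known. Promoter windows are RefSeq's on GRCm38.p6, transcript lengths GENCODE M21's.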

Additional observations from a re-analysis of the deposited data

How the results depend on the processing

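Of the 35 tested collagens, 32 kept their direction and their side of the threshold under all alternatives in which they were tested. The exceptions were Col4a1, Col4a2 and Col4a4, which kept their direction. Col4a6 was not tested without K36M replicate 1. Collagens called higher numbered 9, with a range of 7 to 8 when a library was left out and 4 at a mean of at least 5 CPM, where fewer genes were tested. Collagens called lower numbered 26 (25 to 26 with a library left out). Basement membrane chains called higher numbered 4 and ranged from 2 to 3 with a library left out (3, 2, 2 and 3 without WT replicate 1, WT replicate 2, K36M replicate 1 and K36M replicate 2), with 1 at a mean of at least 5 CPM. Those called lower numbered 2 and ranged from 1 to 2, with 1 under upper quartile scaling, total counts and a mean of at least 5 CPM. FACIT chains called lower numbered 4 at a mean of at least 5 CPM. With no low-count filter 1 FACIT and 1 beaded filament chain were called higher. The Col4a3 to Col4a4 log2 ratio difference was -0.41 and reversed to 0.85 without WT replicate 2, with a range from -1.66 to 0.85. Collagen took 4.18% and 4.17% in the WT libraries on TMM-scaled CPM of filtered genes, more than 1 SD from 4.10% and 4.11%. The authors' factors gave 4360 genes higher and 5709 lower over all genes, against 5070 and 4879 with TMM, and shifted the median log2 fold change by -0.09. With the replicate block 5008 genes were higher and 4796 lower, and the block ended 1 collagen call, that of Col4a4. Same-numbered libraries did not deviate together (correlation 0.0017), and the labels tie no number to a culture. Chain ratios do not depend on scaling or test.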
